A study of Mus musculus with 6 samples.

Results

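Of the 9911 nuclei kept from the Foxr2 p53LOF tumor library, 408 carried RNA of Hmga2 and of some genes of differentiating oligodendrocyte precursors. These 408 nuclei are described here. They made up 4.12% of the kept nuclei, with a 95% interval of 3.73% to 4.53%. They were chosen by their RNA. Each had at least 1000 UMIs (unique molecular identifiers, the RNA molecules counted), no more than 5% of them from mitochondrial genes, at least 2 Hmga2 UMIs, at least 5 UMIs summed over Enpp6, 9630013A20Rik, Bcas1, Gpr17 and Moxd1, and more of these than of Egfr, Rfx4, Dbx2 and Abcc12 together. Their UMIs of Dock2, Ptprc, Inpp5d, Apbb1ip and Csf1r, which are genes of immune cells, stayed under 0.2% of the total, and they had at most 1 UMI of the proliferation genes Mki67 and Top2a. The library held 10379 barcodes and the series 22125 in 3 libraries. Among 8925 nuclei of Foxr2 alone replicate 1 that passed the same limits on UMIs and mitochondrial share, 0 met the rule.

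The study made brain tumors in C57BL/6J mice by in utero electroporation, in which a current carries injected plasmids into cells of the embryonic brain, here aimed at the ganglionic eminences. All libraries carried overexpression of Foxr2, a forkhead transcription factor, from a piggyBac vector under the CAG promoter with GFP, and an Akaluc luciferase vector. The Foxr2 p53LOF library additionally had a p53 loss of function made with a guide against Trp53 and Cas9. Nuclei of frozen brain tissue were read by the 10x Multiome assay, which gives RNA and open chromatin (ATAC) from the same nucleus. The CAG promoter is active in most cell types, and plasmids can enter any progenitor that lines the ventricle, so the cell that received them is not fixed by the vector. All 408 nuclei came from 1 library, so there is no replicate, no test was made, and every interval given is a 95% interval of counting error only.

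Oligodendrocyte precursor cells are the dividing glia of the brain that make myelinating oligodendrocytes. They carry the PDGF receptor Pdgfra and the proteoglycan Cspg4. On the way to myelination they lose both, pass through a short committed stage marked by Enpp6, Bcas1 and Gpr17, and then switch on myelin genes under Sox10 and Myrf. Hmga2 is a chromatin protein of fetal tissue and tumors that normal adult glia lack.

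The label given to these nuclei, oligodendrocyte-precursor-like, was checked against marker genes. Of 17 genes of oligodendrocyte precursors, 14 reached 10 CPM (UMIs per 1000000 UMIs) in these nuclei or in the other barcodes, 3 of them (Nkx2-2, Sox6 and Sox10) were more than 2-fold higher and 0 lower, where 3.69% of all 10912 genes tested were higher and 13.9% lower. Pdgfra stood at 169 CPM against 88.6 in the other barcodes, Cspg4 at 26 against 12.9 and C1ql1 at 6.64 against 10.6. Of 13 tested genes of the committed stage, 7 were more than 2-fold higher than in the other barcodes and 0 lower. Of these 7, Bcas1, Enpp6, Moxd1 and 9630013A20Rik were part of the rule, and Rras2, Cnksr3 and Bmp4 were not. Gpr17, the remaining gene of the positive sum, was not among the 7. The nuclei are called Enpp6/Bcas1 nuclei after genes of the rule. Because the rule itself asked for Enpp6, 9630013A20Rik, Bcas1, Gpr17 and Moxd1, their RNA levels are descriptions of the choice.

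The Enpp6/Bcas1 nuclei were set beside 3 references of the same library. The other barcodes were the remaining 9503 nuclei. The Egfr/Rfx4 nuclei, 606 in number, also had Hmga2 but carried at least 5 UMIs of Egfr, Rfx4, Dbx2 and Abcc12, genes used here to mark astrocyte-like tumor nuclei, and fewer of the other sum. The Pdgfra nuclei, 192 in number, had 0 UMIs of Hmga2 and at least 3 of Pdgfra, Cspg4 and C1ql1. They met the same limits on immune genes and on Mki67 and Top2a. Their UMIs of the neuron genes Rbfox3, Syt1 and Snap25 stayed under 0.2% of the total, a limit not set for the Enpp6/Bcas1 nuclei. A further 1624 nuclei with Mog, Mag and Mobp served as mature oligodendrocytes (Mog/Mag nuclei), also with 0 Hmga2 UMIs and the same limit on neuron genes. As background served 1268 immune nuclei. Their levels hold background RNA and any RNA that these cells make themselves, which were not separated. Another 300 nuclei met the Enpp6/Bcas1 rule except for 2 or more UMIs of Mki67 and Top2a, and are called cycling Enpp6/Bcas1 nuclei. The 219 neuronal nuclei had at least 0.5% of their UMIs from Rbfox3, Syt1 and Snap25. The Enpp6/Bcas1 nuclei had a median of 13297 UMIs, 4380.5 genes and 14545 ATAC counts, against 5984 UMIs and 6599 ATAC counts in the other barcodes. A doublet caller marked 17 of them (4.17%), against 348 of all kept nuclei (3.51%). The library shared 140 barcodes with Foxr2 alone replicate 1 and 34 with replicate 2, of which 1 and 2 were Enpp6/Bcas1 nuclei.

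The 5 genes of the positive sum did not weigh alike. Bcas1, a gene of newly forming myelin, gave 65.5% of the UMIs in it. Enpp6, a choline-specific phosphodiesterase, gave 12.1%, the uncharacterized transcript 9630013A20Rik gave 11.4%, Moxd1, a monooxygenase-like protein, 10.4%, and Gpr17, a receptor of the committed stage, 0.551%. Without Bcas1, 134 of the 408 nuclei (32.8%) would have fallen under 5 UMIs. At the edges of the rule, 17 nuclei had a sum of exactly 5 and 19 otherwise matching nuclei a sum of 4. Another 48 nuclei had exactly 2 Hmga2 UMIs, while 119 nuclei with 1 UMI and 750 with 0 were left out. The balance of both sums was 1 UMI in 3 nuclei inside and 0 in 3 nuclei outside, 105 nuclei had 1 UMI of Mki67 and Top2a and 58 with 2 were left out, and 19 nuclei were left out for their immune UMIs.

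The 6 marker genes of these nuclei ran highest, among the sets compared, in the Enpp6/Bcas1 nuclei for Moxd1, Adamts9, Gdnf and Sema3a, but not for Enpp6 and 9630013A20Rik. Enpp6 (ENSMUSG00000038173) was read at 283 CPM, at 227 in the cycling Enpp6/Bcas1 nuclei, 100 in the other barcodes, 17.4 in the Egfr/Rfx4 nuclei, 96.6 in the Pdgfra nuclei, 307 in the Mog/Mag nuclei and 14.9 in the immune nuclei. 9630013A20Rik (ENSMUSG00000115529) was read at 266 CPM and at 254, 115, 5.28, 103, 431 and 7.75 in the same order. Both genes were thus as high or higher in the mature oligodendrocytes. Moxd1 (ENSMUSG00000020000) stood at 244 CPM, against 227, 60.5, 28.5, 67.5, 20.3 and 3.98 in that order. Moxd1 was part of the sum that chose both Enpp6/Bcas1 sets.

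Adamts9, Gdnf and Sema3a were no part of the rule, though they were picked as markers from these nuclei. Adamts9 (ENSMUSG00000030022), a secreted metalloprotease that cuts versican, was at 680 CPM (661 to 699), against 478, 142, 139, 284, 37.1 and 3.77 in the same order. Sema3a (ENSMUSG00000028883), a secreted axon guidance protein, was at 347 CPM (334 to 361), against 224, 84.4, 78.1, 171, 12.8 and 6.70. Gdnf (ENSMUSG00000022144), the glial growth factor that signals through Gfra1 and Ret, was at 93.1 CPM (86.1 to 101), against 51.9, 14.8, 8.20, 5.29, 11.9 and 1.05. The level of Gdnf was 6.29-fold (5.72 to 6.91) that of the other barcodes, 11.4-fold (8.69 to 15.1) that of the Egfr/Rfx4 nuclei and 17.6-fold (8.88 to 40.9) that of the Pdgfra nuclei. All 6 genes were lower in the immune nuclei, the measure of background RNA, than in the Enpp6/Bcas1 nuclei.

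**Figure D1:**
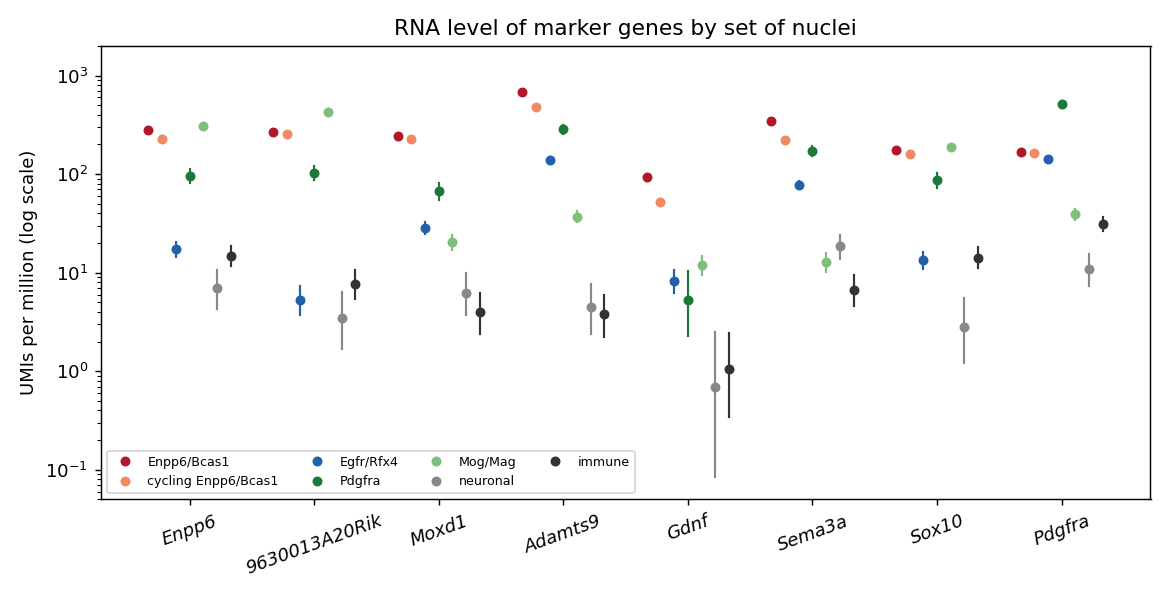
RNA of the 6 marker genes, Sox10 and Pdgfra in 7 sets of nuclei of the Foxr2 p53LOF library, in CPM on a log axis; points are summed levels and bars are 95% Poisson intervals. Gdnf is highest in the Enpp6/Bcas1 nuclei at 93.1 CPM, while Pdgfra is highest in the Pdgfra nuclei at 520 CPM.

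The markers were not in every nucleus. Enpp6 had a UMI in 302 of the 408 nuclei (74.0%), Adamts9 in 320 (78.4%), Moxd1 in 253 (62.0%), 9630013A20Rik in 202 (49.5%), Sema3a in 195 (47.8%) and Gdnf in 152 (37.3%). These shares rise with depth. When each nucleus was thinned to 1000 UMIs, Adamts9 was left in 37.5% of the Enpp6/Bcas1 nuclei (32.8% to 42.4%), 10.9% of the Egfr/Rfx4 nuclei, 12.5% of the Pdgfra nuclei and 0.473% of the immune nuclei. Gdnf was left in 8.82% (6.26% to 12%), against 0.165%, 0.521% and 0.315%. Enpp6 was left in 17.2% of the Enpp6/Bcas1 nuclei and in 14.8% of the Mog/Mag nuclei, with overlapping intervals (13.6% to 21.2% and 13.1% to 16.7%). Bcas1 was left in 60.0% and 58.0% of the same sets. Gpr17 was left in 1.96% of the Enpp6/Bcas1 nuclei (0.850% to 3.83%) and 0.493% of the Mog/Mag nuclei. In the Pdgfra nuclei Gpr17 was left in 4.17% (1.82% to 8.04%).

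**Figure D2:**
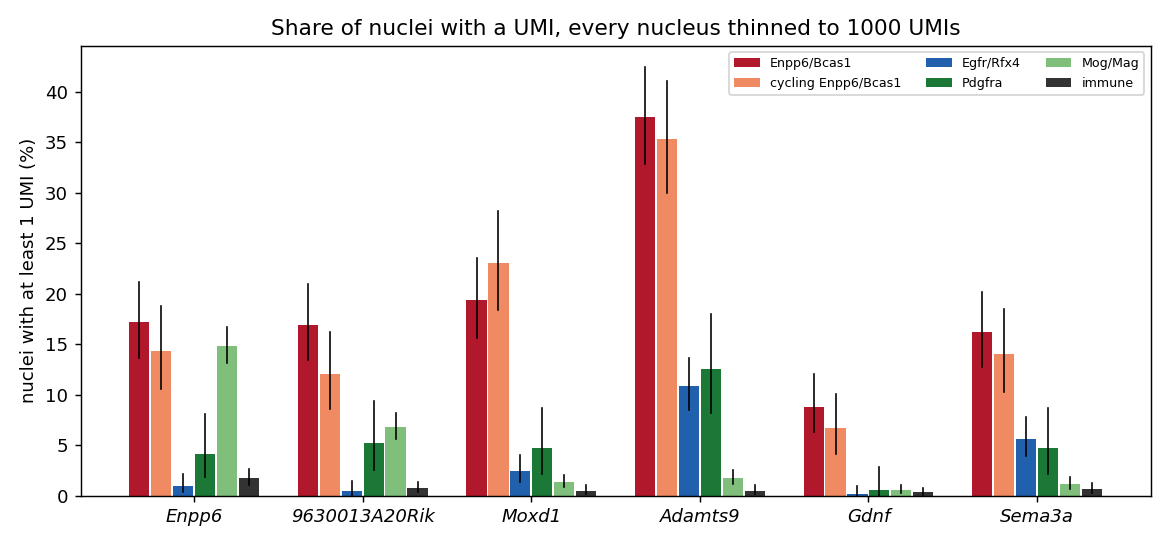
Share of nuclei with at least 1 UMI of each marker gene after every nucleus was thinned to 1000 UMIs, in percent, with 95% binomial intervals as black lines. Adamts9 reaches 37.5% in the Enpp6/Bcas1 nuclei, and Enpp6 is as frequent in the Mog/Mag nuclei (14.8%) as in the Enpp6/Bcas1 nuclei (17.2%) within the intervals.

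Within the Enpp6/Bcas1 nuclei, UMIs ran from 1654 to 105490 and ATAC counts from 78 to 124042. The 204 nuclei with more UMIs and the 204 with fewer were compared, and 277 of 10141 genes tested (2.73%) were more than 2-fold higher in the deeper nuclei and 58 (0.572%) lower. Enpp6 was at 295 CPM in the deeper and 244 CPM in the shallower nuclei, Sox10 at 182 and 153 and Bmp2 at 134 and 136. Moxd1 and Hmga2, both genes of the rule, were lower in the deeper nuclei by less than 2-fold, with 206 against 365 CPM and 1245 against 2147 CPM. Outside the rule, Tnc (893 against 1742 CPM) and Sema3a (315 against 452) were also lower by less than 2-fold. Slc14a1 (107 against 235), Aldh1a3 (84 against 175) and Qrfpr (4.63 against 68.4) were lower by more than 2-fold. Higher in the deeper nuclei were the glutamate receptor Gria3 (53.9 against 7.14 CPM), the synaptic gene Syt1 (286 against 141), the neuronal gene Rbfox3 (14.6 against 2.38) and the astrocyte genes Aqp4 (58.9 against 25) and Slc4a4 (44.7 against 12.5). The cause was not tested.

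The carrier vectors were read in these nuclei. GFP stood at 660 CPM and in 93.9% of the nuclei, against 175 CPM and 41.4% of the immune nuclei, the background. Akaluc stood at 352 CPM and 81.6%, against 54.9 CPM and 17.4%. Foxr2, whose transgene and endogenous reads cannot be told apart, stood at 74.9 CPM and 53.2%, against 22.2 CPM and 7.65%. The Egfr/Rfx4 nuclei had 522 CPM of GFP and 72.1 CPM of Foxr2. The median depth of the immune nuclei was 2718.5 UMIs, against 13297, and shares of nuclei with a UMI move with depth. Trp53 was read at 47.2 CPM. In the immune nuclei it was read at 40 CPM. A guide can change the Trp53 protein without changing its RNA level, so p53 loss is not checked by this value. UMIs of Cas9 and of the guide were 0 in the 408 nuclei, which at a limit of 3 counts allows a share of up to 0.735% of nuclei with a UMI.

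ATAC counts in the vector peaks gave a readout of the vectors that the rule did not use. Such a count was found in 117 of the 408 Enpp6/Bcas1 nuclei (28.7%, 24.3% to 33.3%), in 29.7% of the Egfr/Rfx4 nuclei, in 53% of the cycling Enpp6/Bcas1 nuclei, in 3.20% of the Mog/Mag nuclei, in 0.552% of the immune nuclei and in 0 of 219 neuronal nuclei, which at a limit of 3 counts allows a share of up to 1.37%. The median ATAC depth was 14545, 10480.5, 32108, 5421.5, 5392.5 and 7544 counts in the same order. Per 1000000 ATAC counts the vectors gave 42.7 in the Enpp6/Bcas1, 60.7 in the Egfr/Rfx4 and 49.7 in the cycling nuclei. They gave 34.8 in the Pdgfra, 13.1 in the Mog/Mag and 2.51 in the immune nuclei.

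The Pdgfra nuclei were not free of vectors either. Although they had 0 Hmga2 UMIs, GFP stood at 707 CPM in them, against 660 in the Enpp6/Bcas1 nuclei. Akaluc stood at 457 against 352 CPM and Foxr2 at 95.9 against 74.9. A GFP or Akaluc UMI was found in 75% of them, against 96.3% of the Enpp6/Bcas1 and 49.7% of the immune nuclei. A vector ATAC count was found in 22 of 192 (11.5%, 7.32% to 16.8%). Their median ATAC depth was 7118 counts, against 14545, and this share can move with depth. Scaled to ATAC counts, the vectors gave 34.8, against 42.7. A set of 48 of the Pdgfra nuclei without GFP or Akaluc UMIs and without a vector ATAC count was therefore added after the data were seen. It held 242411 UMIs. Against it, 2855 of 11058 genes tested (25.8%) were more than 2-fold higher in the Enpp6/Bcas1 nuclei and 2166 (19.6%) lower, and the whole interval lay beyond 2-fold for 500 and 1095 of these. Values for these 48 vector-free Pdgfra nuclei are given beside several genes.

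Against the Pdgfra nuclei, 617 of 10692 genes tested (5.77%) were more than 2-fold higher in the Enpp6/Bcas1 nuclei and 1254 (11.7%) lower. The whole interval lay beyond 2-fold for 234 and 860 of these genes. Genes of oligodendrocyte precursors were lower as a group, with 11 of 17 tested lower, 2 higher and a median log2 ratio of -1.08, against 0.07 over all genes. Pdgfra, Cspg4 and C1ql1 are among the 11 and chose the Pdgfra nuclei, so their difference is a description of that choice. Of the other 14 genes, 8 were lower and 2 higher. Pdgfra was at 169 against 520 CPM, the complement-like protein C1ql1 at 6.64 against 118, the sialidase Neu4 at 3.11 against 36.4, the hyaluronan-binding protein Susd5 at 0.848 against 33.1 and versican (Vcan) at 202 against 615. Neu4 is also a marker of the committed stage. Sox10, the master regulator of the lineage, was at 175 against 86.7 CPM, and Nkx2-2 at 143 against 57.6. In the 48 vector-free Pdgfra nuclei, Pdgfra was at 697 CPM, C1ql1 at 243, Sox10 at 45.4 and Nkx2-2 at 53.6. In the 133 Pdgfra nuclei of Foxr2 alone, Sox10 was at 252 CPM, above the Enpp6/Bcas1 level. Against that set 2395 of 11317 genes (21.2%) were higher and 2708 (23.9%) lower, and the library and the genotype cannot be told apart there.

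Myelin genes were higher than in the Pdgfra nuclei, with 12 of 15 tested past 2-fold, 0 lower and a median log2 ratio of 1.78, where all genes gave 5.77%, 11.7% and 0.07. Myelin basic protein (Mbp) was at 1764 CPM against 423, the tight junction protein Cldn11 at 321 against 99.2, Opalin at 87.3 against 15.9 and Myrf, the regulator of myelin genes, at 90.9 against 23.8. Mobp, Mal and Aspa, which are among the 12, and Ermn were at or under the level of the immune nuclei, and their counts cannot be read as expression. Mog was at 70.4 CPM against 53.2 in the immune nuclei. The Pdgfra nuclei were required to have fewer UMIs of Mog, Mag and Mobp than of Pdgfra, Cspg4 and C1ql1, so the difference in those 3 is part of that choice. Against the Mog/Mag nuclei, 1543 of 10375 genes tested (14.9%) were higher and 1066 (10.3%) lower. The Mog/Mag nuclei, chosen by Mog, Mag and Mobp themselves, were above for the late genes, with Mog at 943 CPM, Mag at 971 against 128 and Mal at 736 against 27.0. Mbp was also below the Mog/Mag nuclei, which had 3735 CPM.

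The genes with the highest lower bounds against the Pdgfra nuclei were Gdnf, Il33, Mog, Bmp2, Tnc, Cyp2j12, Sec14l5, St18, AC106834.1, Mag, Sytl2 and Smad3. Some of these are also on the gene lists. Mog and Mag helped to choose the Pdgfra nuclei, and Gdnf was picked as a marker from the Enpp6/Bcas1 nuclei. Il33, an alarmin cytokine of glia, was at 381 CPM against 44.3, an 8.58-fold ratio (6.74 to 11.1), and was listed with 0 UMIs in the 48 vector-free nuclei. Tnc, the matrix glycoprotein tenascin C, was at 1095 CPM against 156. Bmp2, a bone morphogenetic protein, was at 134 against 13.2. Smad3, which carries TGF-beta signals, was at 178 against 25.8, and St18, a zinc finger factor, at 324 against 45.0. In the vector-free nuclei Tnc had 3 UMIs (12.4 CPM), St18 had 1 UMI (4.13 CPM) and Bmp2 and Smad3 had 0 UMIs. These counts are at or under the floor of 3 counts, so their levels are uncertain. The immune nuclei had 173 CPM of St18 and 113 of Smad3. The Egfr/Rfx4 nuclei had 176 CPM of Smad3, and Tnc did not pass 2-fold against them. St18 was at 323 CPM in the other barcodes and 2462 in the Mog/Mag nuclei. The lowest upper bounds belonged to Ebf2, Gucy2f, Ttc6, Susd5, Sgcd, Ret, Adarb2 and Adamts18. Ret, the signaling receptor for Gdnf, had 4 UMIs (0.565 CPM) against 23.8 CPM.

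Against the Egfr/Rfx4 nuclei, which share Hmga2, 788 of 10405 genes tested (7.57%) were more than 2-fold higher and 894 (8.59%) lower, with the whole interval beyond 2-fold for 547 and 655. The committed stage list holds the 5 genes whose sum separated both sets. Of its other 8 tested genes, 6 were higher (Nfasc, Itpr2, Sirt2, Rras2, Cnksr3 and Bmp4), with Itpr2 under the immune level, and 0 lower. Of the myelin list, 11 of 15 were higher and 0 lower, with a median log2 ratio of 2.13 against 0.09 over all genes. That list includes Mobp, Ermn, Mal and Aspa, which were at or under the immune level. Of the astrocyte list, 8 of 11 were lower, among them the water channel Aqp4 (50.9 against 278 CPM), Gfap (136 against 473) and the transporters Slc1a2 and Slc1a3, and Gja1 and S100b were higher. Sox10 was at 175 CPM against 13.3, a 13.1-fold ratio (10.7 to 16.3). The extracellular matrix protein Tnr was at 571 against 51.1 and the neuregulin receptor Erbb3 at 64.9 against 7.36, both genes of the oligodendrocyte lineage.

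The 12 genes with the highest lower bounds in this comparison were Itgbl1, Igf1, Clca3a1, Col20a1, Srpk3, Ucn2, Aqp1, Sox10, Myo5b, Tnr, Elovl7 and Qrfpr. Igf1, a growth factor that promotes myelination, was at 253 CPM against 16.5 (15.3-fold, 12.7 to 18.6). Itgbl1, a secreted integrin-like protein, was at 53.7 against 2.22 and Ucn2, a stress peptide of the urocortin family, at 36.7 against 1.81. Among those with the lowest upper bounds were Grm5, Six3os1, Ttll8, Emid1, Shroom3, Adgrv1 and Pomc. Grm5, a metabotropic glutamate receptor, was at 162 against 2161 CPM and Adgrv1, an adhesion receptor, at 121 against 1213. Pomc, the precursor of several peptide hormones, was at 81.7 against 776.

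Against all other barcodes, 403 of 10912 genes were more than 2-fold higher and 1514 lower. Aqp1, Itprid1, Itgbl1, Gdnf, Bmp2, Slc14a1, Aldh1a3, Adamts9, Igf1, Qrfpr, Steap3 and Ucn2 led, of which Gdnf and Adamts9 were picked as markers from these nuclei. Aqp1, a water channel, was at 11.4 CPM against 1.26, Slc14a1, a urea transporter, at 138 against 26.5 and Aldh1a3, an enzyme of retinoic acid synthesis, at 106 against 20.5. Depdc1a, Neil3, Cntnap5b, Sfta3-ps, Pcsk2, Slc18a2, Adarb2 and Slc6a3 had the lowest upper bounds. Neil3 is a repair enzyme of dividing cells, and Pcsk2, Slc18a2 and Slc6a3 are genes of neurons and monoamine cells.

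Genes of semaphorin and GDNF signaling were mixed. Of 20 semaphorin, neuropilin, plexin and GDNF family genes, 15 were tested against the other barcodes, 4 were higher (Sema3a, Sema3e, Gdnf and Gfra1) and 5 lower (Plxna2, Sema3c, Plxna4, Ret and Nrp1). All genes gave 3.69% higher and 13.9% lower. Sema3a and Gdnf were picked as markers from these nuclei, so their place among the higher genes describes that choice. Sema3e, a ligand of plexin D1, was at 935 CPM against 225 in the other barcodes, 316 in the Egfr/Rfx4 and 247 in the Pdgfra nuclei. Gfra1, the receptor that binds Gdnf, was at 309 CPM against 106, 101 and 148. Nrp1, the semaphorin co-receptor, was at 21.6 CPM, under the 331 CPM of the immune nuclei, and Sema3c, Plxna4 and Ret were also at or under the immune level. Immune nuclei are among the other barcodes, and the part of their own RNA in the Nrp1 difference was not tested. Among 17 ADAMTS proteases, 5 of 15 tested were higher than in the other barcodes (Adamts1, Adamts4, Adamts5, Adamts9 and Adamts14) and 4 lower, where all genes gave 3.69% and 13.9%. Adamts9 was also picked as a marker from these nuclei. Adamts1 was at 417 CPM against 104, 151 and 140 in the other barcodes, Egfr/Rfx4 and Pdgfra nuclei, and Adamts4, an aggrecanase of oligodendrocytes, at 154 against 70.1, 67.4 and 71.5.

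Growth factor genes were mixed. Of 17 tested against the other barcodes, 6 were higher (Bmp2, Bmp4, Kit, Pdgfa, Met and Erbb3) and 5 lower (Erbb4, Pdgfd, Egfr, Ntrk2 and Pdgfb), where all genes gave 3.69% and 13.9%. Egfr is in the sum that the rule held below the other, so its place describes that choice. Pdgfb was at or under the immune level. Met, the hepatocyte growth factor receptor, was at 79.0 CPM against 21.4 in the other barcodes, 42.1 in the Egfr/Rfx4 and 17.2 in the Pdgfra nuclei. Pdgfa, the ligand of Pdgfra, was at 120 against 47.8, 21.7 and 61.5. Of 9 tested genes that feed back on ERK signaling, 5 were higher than in the other barcodes (Dusp4, Dusp6, Spry2, Spry4 and Spred3) and 0 lower. Against the Egfr/Rfx4 nuclei 0 of 10 were higher and 3 lower (Spry1, Etv4 and Etv5), and against the Pdgfra nuclei 3 were higher (Dusp4, Dusp6 and Spred2) and 1 lower. All genes gave 7.57% higher and 8.59% lower in the former and 5.77% and 11.7% in the latter comparison. Among fetal genes, Igf2bp2, an RNA-binding protein, was at 270 CPM against 68.4, 57.1 and 79.4 in the other barcodes, Egfr/Rfx4 and Pdgfra nuclei. In the vector-free Pdgfra nuclei Igf2bp2 had 1 UMI (4.13 CPM). Lin28b was at 13.4 against 106, 18.6 and 80.1 in the other barcodes, Egfr/Rfx4 and Pdgfra nuclei.

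Most glutamate receptor genes were lower. Of 13 tested, 11 were lower than in the other barcodes, where 13.9% of all genes were, and 10 lower than in the Pdgfra nuclei, where 11.7% were, with a median log2 ratio of -2.25 in the latter against 0.07 over all genes. The AMPA receptor subunit Gria4 was at 66.3 CPM against 652 in the other barcodes, 117 in the Egfr/Rfx4, 922 in the Pdgfra and 2162 in the vector-free Pdgfra nuclei. Gria2 was at 229 against 777, 344, 926 and 1741. The NMDA receptor subunit Grin2b was at 22.3 against 210, 42.8, 162 and 268. Grik2, a kainate receptor subunit, did not pass 2-fold, with 773 CPM against 1228 in the other barcodes and 1325 in the Pdgfra nuclei. Gria4 and Grin2b differed with depth, at 79.7 and 27.6 CPM in the deeper and 23.2 and 5.35 CPM in the shallower Enpp6/Bcas1 nuclei. Neurons, which hold these genes at high levels, are among the other barcodes. Other genes high in the neuronal nuclei also differed from the Pdgfra nuclei. Adarb2 was at 33.1 CPM against 564 in the Pdgfra, 1126 in the vector-free Pdgfra and 1868 in the neuronal nuclei, and Sgcd at 31.4 against 564, 1064 and 1493. Of the 10 neuron genes 4 were lower than in the Pdgfra nuclei and 0 higher, and the part of neuronal RNA in the receptor difference was not tested. Rbfox3, Syt1 and Snap25 were limited in the Pdgfra nuclei but not in the Enpp6/Bcas1 nuclei.

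Genes of other cell types differed by list. All 10 immune genes stood under the immune nuclei, with P2ry12 at 15.4 against 671 CPM. Csf1r and Ptprc are among the 10. The rule limited both, and both helped to choose the immune nuclei, so their difference describes that choice. Of 10 neuron genes, 5 were lower than in the other barcodes and 0 higher, where all genes gave 13.9% and 3.69%, and all 10 were above the immune level. Snap25, a synaptic gene, was at 51.3 CPM against 897 in the neuronal nuclei. It helped to choose those nuclei, so this difference describes that choice. The cytoskeletal gene Map2, no part of that choice, was at 821 against 837. Elavl3, an RNA-binding protein of neurons, was at 278 CPM here, 419 in the Mog/Mag nuclei and 379 in the neuronal nuclei. All 4 mural genes were at or under the immune level, and Cldn5 was at 0.424 CPM. Of 6 endothelial genes 4 were at or under it, Tek was at 1.13 CPM and the VEGF receptor Flt1 at 29.5 against 8.79 in the immune nuclei. All 5 ependymal genes were above the immune level and under 10 CPM, from 0.707 to 4.66. Of 14 tested genes of S phase and mitosis, 6 were lower than in the other barcodes and 0 higher, against the same shares, and the rule limited Mki67 and Top2a. Of the 22 genes listed, 20 were at or under the immune nuclei, which themselves had Mki67 at 124 CPM. Of 23 p53 target genes, 17 were tested against the other barcodes and 0 passed 2-fold in either direction, with 10 of the 23 at or under the immune level. The other barcodes hold further tumor nuclei of the same p53LOF library, among them 606 Egfr/Rfx4 and 300 cycling Enpp6/Bcas1 nuclei. This comparison is therefore no readout of p53 loss. Against the cycling Enpp6/Bcas1 nuclei, 31 of 10412 genes (0.298%) were higher and 346 (3.32%) lower. The cycling set had Cldn5, an endothelial gene, at 21.5 CPM, a median of 29838 UMIs and 6% of its nuclei marked as doublets, and the part of these in the comparison was not tested.

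The ATAC counts of the same nuclei were not used to choose them. Counts were divided by 2 to give fragments and scaled to 1000000 fragments in peaks (fragment CPM). Over the gene body of Enpp6 (chr8:46986887-47096762, plus strand, mm10), the Enpp6/Bcas1 nuclei had 108 fragment CPM, against 49.0 in the other barcodes, 29.0 in the Egfr/Rfx4, 47.6 in the Pdgfra and 95.8 in the Mog/Mag nuclei. The ratio was 2.21 (1.98 to 2.45), 3.72 (3.00 to 4.66) and 2.27 (1.64 to 3.24) to the first 3. Moxd1 (chr10:24223517-24302790, plus strand) had 61.2, against 29.3, 29.2, 36.6 and 17.4. 9630013A20Rik (chr14:84458639-84476424, minus strand) had 15.2, against 8.10, 1.53, 8.54 and 13.1, and its ratio to the Egfr/Rfx4 nuclei was 9.94 (4.17 to 29.8). Sox10 (chr15:79154908-79165240, minus strand) had 35.1, against 18.7, 4.86, 29.9 and 53.6. For these 4 genes the chromatin of the Enpp6/Bcas1 nuclei was more open than that of the Egfr/Rfx4 nuclei. Enpp6, Moxd1 and 9630013A20Rik are genes of the rule, which separated these sets. No peak of 9630013A20Rik reached the limits for testing. Bcas1 had a ratio of 1.71 (1.48 to 1.98) to the Egfr/Rfx4 and 1.21 (0.973 to 1.52) to the Pdgfra nuclei. Moxd1 had 1.67 (1.14 to 2.53) to the Pdgfra nuclei. There 9630013A20Rik had 1.78 (0.811 to 4.62) and Sox10 1.17 (0.759 to 1.89), and both intervals held 1.

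For Sema3a and Adamts9 the RNA was higher than in the Egfr/Rfx4 nuclei and the interval of the chromatin ratio held 1, while for Gdnf both were higher. Sema3a (chr5:13125414-13602565, plus strand) had 71.4 fragment CPM in the Enpp6/Bcas1 and 81.2 in the Egfr/Rfx4 nuclei, a ratio of 0.879 (0.743 to 1.04), where its RNA was 4.45-fold (4.05 to 4.88) higher. Adamts9 (chr6:92772699-92943492, minus strand) had 89.8 and 90.3, a ratio of 0.994 (0.852 to 1.16), where its RNA was 4.90-fold higher. Gdnf (chr15:7810846-7837575, plus strand) had 26.2 and 15.8, a ratio of 1.65 (1.18 to 2.33) where its RNA was 11.4-fold higher. The chromatin of Egfr (43.5 against 131) and Hmga2 (158 against 273) was less open than in the Egfr/Rfx4 nuclei. Both are genes of the rule, which asked for Hmga2 RNA in both sets.

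**Figure D3:**
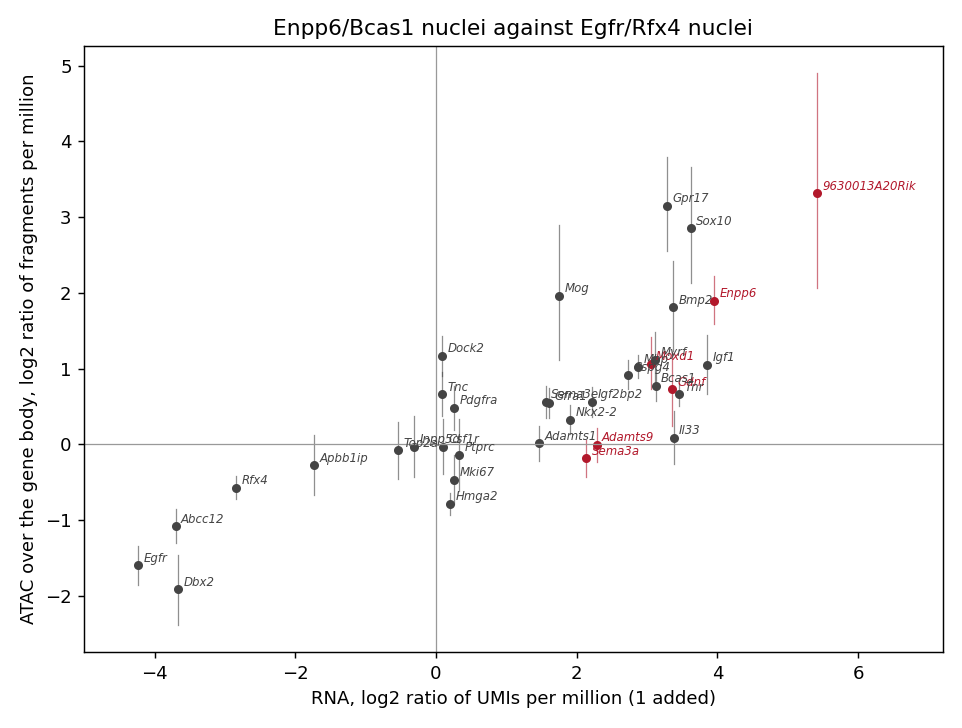
Log2 ratio of the Enpp6/Bcas1 nuclei to the Egfr/Rfx4 nuclei in RNA (horizontal, CPM with 1 added) and in ATAC fragment CPM over the gene body (vertical, with 95% intervals), for the genes of the rule, the marker genes (red) and other named genes. Enpp6, 9630013A20Rik, Moxd1 and Sox10 lie to the upper right, while Sema3a and Adamts9 are higher in RNA with ATAC ratios of 0.879 and 0.994.

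All 5 tested peaks of Enpp6 were more than 2-fold higher than in the Egfr/Rfx4 nuclei, and 4 of the 5 than in the Pdgfra nuclei. Of all peaks tested, 12.4% and 11.7% were higher in these comparisons. Enpp6 and Moxd1 are genes of the rule, whose RNA helped to separate the Enpp6/Bcas1 from the Egfr/Rfx4 nuclei. In an intron of Enpp6 about 19 kb from the start, the peak chr8:47005388-47006275 had 29.3 fragment CPM in the Enpp6/Bcas1 nuclei, 5.14 in the Egfr/Rfx4, 5.49 in the Pdgfra and 36.5 in the Mog/Mag nuclei. The peak at the start of Enpp6 had 11.9, 1.95, 5.49 and 10.7. In Moxd1, the peak chr10:24228047-24228918 had 28.7, 13.6, 17.1 and 5.04. The strongest Enpp6 peak was thus shared with mature oligodendrocytes and the strongest Moxd1 peak was not.

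**Figure D4:**
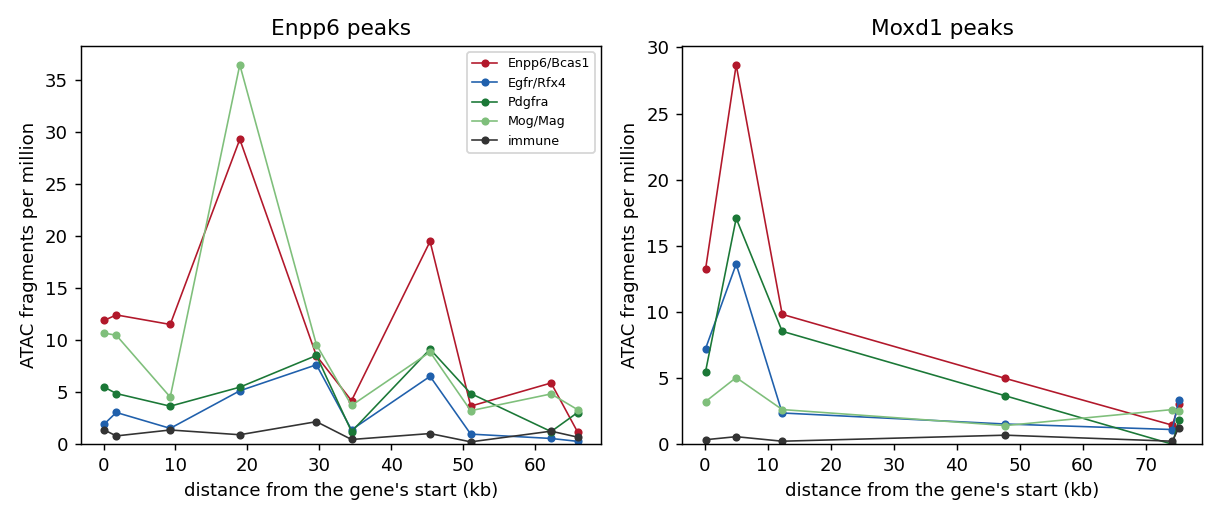
ATAC fragment CPM in each peak of Enpp6 and Moxd1 by distance from the gene's start in kb, in 5 sets of nuclei; lines only join the peaks of a set. The highest Enpp6 peak reaches 29.3 in the Enpp6/Bcas1 and 36.5 in the Mog/Mag nuclei, and the highest Moxd1 peak 28.7 and 5.04.

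The sequences of these regions are shown because they carry the letters that the motif counts below refer to. Capitals mark matches, on either strand, to the AP-1 motif TGANTCA, bound by dimers of Fos and Jun proteins, or to the SOX motif ACAATG. Each window is 300 bases, from mm10 (GRCm38), on the plus strand unless stated, and the windows are the centre of the Enpp6 intron peak (chr8:47005681-47005980), the centre of the Moxd1 intron peak (chr10:24228332-24228631), and the promoters of Enpp6 (chr8:46986637-46986936) and 9630013A20Rik (chr14:84476375-84476674, minus strand), which run from 250 bases before the start to 50 after it in RefSeq on GRCm38.p6.
Enpp6 intron: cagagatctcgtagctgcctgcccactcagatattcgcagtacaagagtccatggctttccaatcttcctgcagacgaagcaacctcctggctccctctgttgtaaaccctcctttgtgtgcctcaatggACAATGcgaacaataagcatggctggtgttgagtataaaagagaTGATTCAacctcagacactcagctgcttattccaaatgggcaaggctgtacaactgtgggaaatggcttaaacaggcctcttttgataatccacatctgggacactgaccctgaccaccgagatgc
Moxd1 intron: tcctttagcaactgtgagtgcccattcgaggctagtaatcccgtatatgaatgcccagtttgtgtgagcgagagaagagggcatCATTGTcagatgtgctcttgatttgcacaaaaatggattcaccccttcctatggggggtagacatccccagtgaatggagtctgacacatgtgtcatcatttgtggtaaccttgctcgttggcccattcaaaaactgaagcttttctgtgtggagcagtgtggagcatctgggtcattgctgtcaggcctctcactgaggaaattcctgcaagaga
Enpp6 promoter: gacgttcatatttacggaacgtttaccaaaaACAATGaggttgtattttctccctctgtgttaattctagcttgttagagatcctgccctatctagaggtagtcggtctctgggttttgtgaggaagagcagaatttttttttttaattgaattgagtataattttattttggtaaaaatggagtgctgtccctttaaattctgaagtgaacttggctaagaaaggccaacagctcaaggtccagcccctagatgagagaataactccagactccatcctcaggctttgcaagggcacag
9630013A20Rik promoter: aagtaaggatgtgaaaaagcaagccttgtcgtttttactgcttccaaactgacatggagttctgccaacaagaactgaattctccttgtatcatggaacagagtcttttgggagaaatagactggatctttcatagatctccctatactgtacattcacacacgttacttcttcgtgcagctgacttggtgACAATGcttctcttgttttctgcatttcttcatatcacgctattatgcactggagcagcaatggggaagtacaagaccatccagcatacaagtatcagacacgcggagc

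The Enpp6 intron window held 1 AP-1 and 1 SOX match, and the Moxd1 window and both promoters 1 SOX match each. The SOX letters occurred in 12.6% of 32851 RefSeq promoters of this length and in 16.8% of all peak windows, and the AP-1 letters in 7.81% and 20.9%. A match is a description of the letters only.

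Across all peaks, 4259 of 34362 tested (12.4%) were more than 2-fold higher in the Enpp6/Bcas1 than in the Egfr/Rfx4 nuclei and 4356 (12.7%) lower, and the whole interval lay beyond 2-fold for 1855 and 2110. Against the other barcodes 3326 of 30110 (11%) were higher and 683 (2.27%) lower. Against the Pdgfra nuclei 3772 of 32171 (11.7%) were higher and 2013 (6.26%) lower, but the interval lay beyond 2-fold for only 120 and 213 of these. The 192 Pdgfra nuclei held 1639254 ATAC counts, against 7635677 in the Enpp6/Bcas1 nuclei. The differences lay away from gene starts. Against the Egfr/Rfx4 nuclei, 17.5% of the peaks farther than 1 kb from a start were higher, against 2.55% of those within 1 kb. Against the cycling Enpp6/Bcas1 nuclei 19 of 30001 peaks (0.0633%) were higher and 24 (0.08%) lower.

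Genes that differed in RNA tended to differ the same way at their starts. Of 582 genes higher in RNA than in the Egfr/Rfx4 nuclei that had a tested peak at the start, 94 (16.2%) had that peak higher and 3 lower. Of 635 genes lower in RNA, 0 had it higher and 112 (17.6%) lower. Of 7588 genes past neither limit, 0.409% had it higher and 0.356% lower. Against the Pdgfra nuclei, 34 of 455 genes higher in RNA (7.47%) had the peak higher and 1 lower. Of 727 genes lower in RNA, 112 (15.4%) had it lower and 6 higher. There, 0.685% of 7742 genes past neither limit had it higher and 0.53% lower.

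The place of a peak and its nearest gene start were read from protein-coding genes only. Of the 10 highest peaks against the other barcodes, 8 were intergenic and 2 lay in introns, and against the Egfr/Rfx4 and the Pdgfra nuclei 7 were intergenic and 3 lay in introns. Against the cycling Enpp6/Bcas1 nuclei 3 were intergenic and 7 lay in introns. Against the other barcodes the first was chr16:86347599-86348518, in the intergenic stretch whose nearest gene start is that of Adamts5, 446230 bases away, with 12.7 fragment CPM against 2.27 (5.6-fold, 3.90 to 7.94). The fourth lay in an intron of Ldb2 at chr5:44766581-44767492, with 19.8 against 4.09. Against the Pdgfra nuclei the first was chr4:124667351-124668257, intergenic and 10997 bases from the start of Pou3f1, with 39.3 against 1.83. The second was chr9:99748123-99749002, intergenic and nearest to Cldn18, with 19.9 against 0 in 192 nuclei. The first of these 4 had 0.807 in the Mog/Mag nuclei, while the Pou3f1 peak had 66.5.

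The centres of these 4 peaks are given as 300-base windows on the plus strand of mm10, with the same capitals, to show how AP-1 letters sit in the most different regions. They are chr16:86347908-86348207, chr5:44766886-44767185, chr4:124667654-124667953 and chr9:99748412-99748711.
Peak nearest to Adamts5: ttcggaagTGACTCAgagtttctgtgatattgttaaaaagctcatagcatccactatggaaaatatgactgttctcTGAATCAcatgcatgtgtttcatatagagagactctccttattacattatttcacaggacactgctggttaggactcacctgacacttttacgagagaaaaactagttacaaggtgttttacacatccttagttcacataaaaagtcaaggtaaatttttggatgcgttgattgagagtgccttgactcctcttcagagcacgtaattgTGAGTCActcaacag
Peak in Ldb2: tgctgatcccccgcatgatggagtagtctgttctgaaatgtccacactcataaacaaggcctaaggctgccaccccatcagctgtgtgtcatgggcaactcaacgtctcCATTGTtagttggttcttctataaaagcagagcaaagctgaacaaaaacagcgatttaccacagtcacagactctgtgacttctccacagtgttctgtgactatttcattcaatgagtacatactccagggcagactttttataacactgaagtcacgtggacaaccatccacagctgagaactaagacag
Peak near Pou3f1: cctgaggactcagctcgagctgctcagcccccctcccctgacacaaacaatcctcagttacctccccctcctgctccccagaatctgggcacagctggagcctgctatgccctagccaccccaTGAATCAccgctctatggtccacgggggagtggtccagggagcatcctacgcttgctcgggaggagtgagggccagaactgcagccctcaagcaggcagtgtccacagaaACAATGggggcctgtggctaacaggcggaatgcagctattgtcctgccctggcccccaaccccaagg
Peak nearest to Cldn18: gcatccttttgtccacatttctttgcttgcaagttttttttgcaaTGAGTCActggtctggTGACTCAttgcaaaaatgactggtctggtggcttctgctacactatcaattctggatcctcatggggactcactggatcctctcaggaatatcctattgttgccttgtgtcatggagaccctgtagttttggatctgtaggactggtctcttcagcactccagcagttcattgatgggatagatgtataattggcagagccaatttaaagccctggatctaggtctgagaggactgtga

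The window nearest to Adamts5 held 3 AP-1 matches and the one nearest to Cldn18 held 2. The Pou3f1 window held 1 AP-1 and 1 SOX match, and the Ldb2 window 1 SOX match.

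Counted over all distal peaks, those farther than 1 kb from a start, the AP-1 letters were more frequent in peaks higher in the Enpp6/Bcas1 nuclei. They were in 61.1% of 3218 distal windows higher than in the other barcodes, 23.9% of those past neither limit and 11.6% of those lower. The shares were 41.4%, 28.6% and 17.3% against the Egfr/Rfx4 nuclei, and 52.3%, 24.8% and 7.84% against the Pdgfra nuclei, where 20.9% of all 112883 peak windows held them. SOX letters were in 28.9% of the windows higher than in the Egfr/Rfx4 nuclei, 16.6% of those past neither limit and 17.0% of those lower. Against the Mog/Mag nuclei the order of the SOX letters turned, with 18.4% of the higher, 19.8% of the neither and 34.4% of the lower windows, while AP-1 was in 56.9%, 17% and 8.56%. Against the Egfr/Rfx4 nuclei the RFX motif was in 0.328% of the higher and 2.34% of the lower windows, and against the Mog/Mag nuclei in 1.18% of the higher and 0.283% of the lower ones. The higher, lower and neither windows of the Egfr/Rfx4 comparison had median GC contents of 50%, 51.3% and 54%, and the part of GC in these shares was not tested. TEAD letters (GGAATG) were in 16.3% of the higher and 21.4% of the lower windows of that comparison. All motifs were searched on both strands. Of the remaining 6 motifs counted, the E-box CAGCTG was in 38.1% and 29.1%, and CATATG, RUNX (TGTGGT), forkhead (TGTTTAC), ETS (CCGGAAGT) and NFI letters in 5.43% and 3.44%, 22.5% and 19.8%, 4.52% and 2.83%, 0.505% and 0.369%, and 0.101% and 0.123%.

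**Figure D5:**
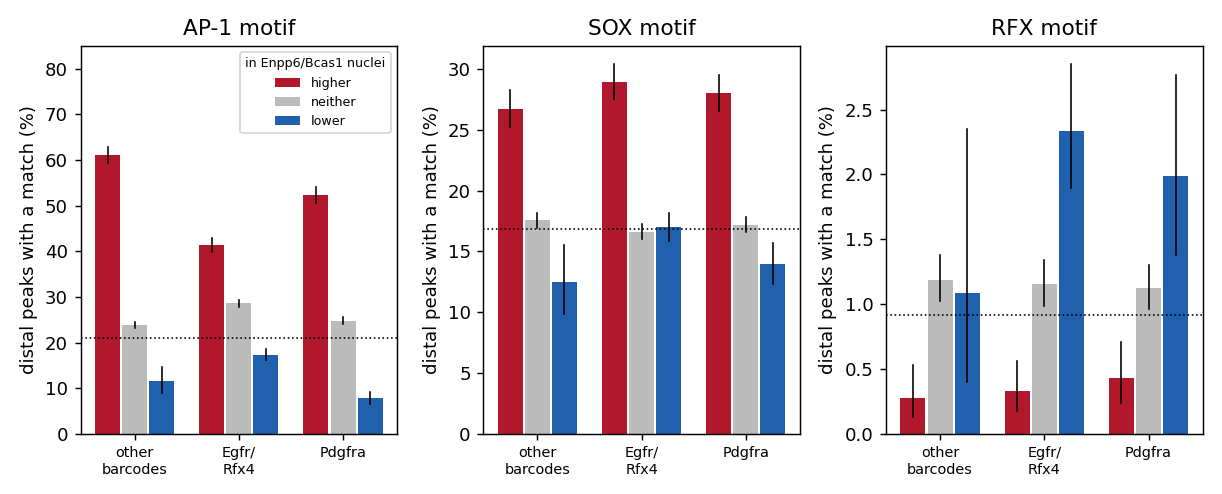
Share of distal peak windows (percent) with the letters of the AP-1, SOX and RFX motifs, for peaks higher, lower or neither in the Enpp6/Bcas1 nuclei against 3 references, with 95% binomial intervals; the dotted line is the share in all peaks. AP-1 is in 61.1% of the windows higher than in the other barcodes and 11.6% of the lower ones, and RFX in 0.328% and 2.34% against the Egfr/Rfx4 nuclei.

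The RNA of the factors named by these motifs was looked up after the motif counts were seen. Of 7 Fos and Jun genes, 6 were tested against the other barcodes and 3 were higher (Fos, Fosl1 and Fosl2), where 3.69% of all genes were. Fosl1 was at 20.8 CPM against 5.40 in the other barcodes, 5.98 in the Egfr/Rfx4 and 2.65 in the Pdgfra nuclei, and Fos at 121 against 46.3, 66.6 and 64.2. Jun was at 135 against 69.1, 83.8 and 126. Of the TEAD genes, Tead4 was at 66.1 against 14.0, 16.4 and 8.60, and Tead1 at 95.9 against 135, 409 and 138. Of the RFX genes, Rfx4, which the rule used, was at 137 against 990 in the Egfr/Rfx4 nuclei, and Rfx3 at 434 against 441.

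ATAC counts per chromosome were set against those of the neuronal and immune nuclei. The share of ATAC counts on a chromosome in the Enpp6/Bcas1 nuclei was between 0.895 (chromosome 7) and 1.07 (chromosome 5) times that in the Egfr/Rfx4 nuclei. The share of UMIs was between 0.83 (chromosome 6) and 1.39 (chromosome 10) times. As log2 ratios of ATAC to the neuronal and immune nuclei, chromosome 7 gave -0.24 in the Enpp6/Bcas1, -0.25 in the cycling Enpp6/Bcas1 and -0.08 in the Egfr/Rfx4 nuclei, chromosome 14 gave -0.02, -0.03 and 0.11 and chromosome 5 gave -0.01, 0.02 and -0.11. In the same order, chromosome 17 gave -0.27, -0.30 and -0.26, chromosome 18 gave 0.24, 0.20 and 0.19 and chromosome 3 gave 0.19, 0.21 and 0.21. For chromosomes 17, 18 and 3 the Mog/Mag nuclei gave -0.16, 0.18 and 0.13. These are ratios of summed counts over different nuclei, and no cause was tested.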

How the data were processed

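Single-nucleus RNA and ATAC counts were read from the deposited matrices, made by the authors with Cell Ranger ARC 2.0.0 (mm10, with vector sequences added), per the submitters' processing notes. These deposited count values were not normalized. The barcodes of Foxr2 alone replicate 2 were compared, but not its counts. Members and lists were chosen with earlier results of these data known. UMIs and peak fragments (counts divided by 2) were summed over nuclei and scaled to CPM. A gene or peak was tested at 10 CPM in either set (peaks also 20 fragments) and counted past a 2-fold difference with 1 CPM added. Named genes were those of the lists, plus the 12 highest lower bounds and 8 lowest upper bounds per comparison. Gene models, ribosomal, mitochondrial and rule genes were left out of these. Of the genes so chosen, some are not reported here. Intervals were exact Poisson or Clopper-Pearson at 95%. The floor of a share was 3 counts. Scrublet in scanpy 1.11.5 (expected rate 8%) marked doublets, which stayed in. Python 3.11.15, numpy 2.4.6, pandas 2.3.3 and scipy 1.17.1 were used. The scripts were tested on simulated data, and 10 alternatives were planned and 3, like the AP-1, RFX and TEAD gene lists, were added after seeing the data.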

Additional observations from a re-analysis of the deposited data

How the results depend on the processing

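No paired analysis was possible because all Enpp6/Bcas1 nuclei come from 1 library. Of 464 ratios of named genes under alternatives, 462 kept their sign. By size, 314 stayed within the interval of the main ratio, 149 moved outside it and 1 that had passed 2-fold reversed. Enpp6, 9630013A20Rik and Moxd1 are genes of the rule, and Adamts9, Gdnf and Sema3a were picked as markers. The signs of these genes therefore partly describe that choice. The log2 ratio of Sox10 to the Pdgfra nuclei reversed, to -0.52, against the Pdgfra nuclei of Foxr2 alone. That of Tnc to the Egfr/Rfx4 nuclei, which was 0.08 and not past 2-fold, was -0.19 without Bcas1 in the sum. The number of nuclei stayed within 1.5-fold of 408 except without Bcas1 in the sum (245). With nuclei thinned to 1000 UMIs, the genes higher were 982 against the other barcodes, 1520 against the Egfr/Rfx4 nuclei (1405 lower) and 1858 against the Pdgfra nuclei (2259 lower). Without a minimum level, 2562 genes were lower than in the other barcodes, and 1225 higher and 2430 lower than in the Pdgfra nuclei. Both alternatives bring in genes with few counts. Against the vector-free Pdgfra nuclei 2855 genes were higher and 2166 lower, and 9445 peaks higher and 6014 lower, and against those of Foxr2 alone 2395 genes were higher and 2708 lower. With 20 CPM required, the peaks higher and lower were 634 and 33 (other barcodes), 750 and 1287 (Egfr/Rfx4) and 700 and 618 (Pdgfra). Scaling to peaks near starts gave 348 peaks lower than in the other barcodes and 1237 lower than in the Pdgfra nuclei. The AP-1 share of higher distal peaks was 58.8% with a sum of at least 8, 65.5% with at least 4 Hmga2 UMIs, 58.3% with that scaling and 52.5% without Bcas1 against the other barcodes. It was 45.1% with 4 Hmga2 UMIs and 37.1% without Bcas1 against the Egfr/Rfx4 nuclei. Against the Pdgfra nuclei it was 57.1% with 4 Hmga2 UMIs, 49.4% with at least 3000 UMIs, 59.3% at 20 CPM, 48.4% against the vector-free nuclei and 46.2% without Bcas1. The SOX share was 28.5% with 3000 UMIs (other barcodes), 31.8% at 20 CPM (Egfr/Rfx4) and 23.9% against the vector-free nuclei. The vector-free, Foxr2 alone and Bcas1 alternatives were chosen after seeing the data. The cause of these shifts was not tested beyond what the smaller number of counts shows. One library and its depth limit every value here.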
